A study of Oryctolagus cuniculus with 4 samples.

Results

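MMP12, GPNMB, LGALS3, CD68, SPP1 and CHI3L1 are 6 of the 21139 genes counted in sections of rabbit supraspinatus muscle, and each was found by its symbol in the gene table. The 6 genes had been chosen from UMI counts of these same sections, among them the counts of GPNMB in a single spot, so their levels are given as a description and were not tested. Spatial expression had been measured with the Visium 3′ assay. In this assay, printed spots under a tissue section capture polyadenylated RNA, and each molecule is counted once through its unique molecular identifier (UMI). There was 1 section for each of 4 conditions, all from the posterior distal muscle belly of female New Zealand White rabbits aged 6 months: fresh healthy muscle, healthy muscle stored frozen for 6 years, and muscle taken 2 weeks or 16 weeks after tenotomy, the cutting of the tendon, and then also stored for 6 years. By the labels, the stored healthy and the 16-week section were opposite sides of 1 animal, and the others came from 1 animal each. Animal, condition and section therefore cannot be told apart, spots of a section are not replicates, and all intervals (95%) cover counting error only.

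Macrophages that take up lipid and cell debris enter a state in which lysosomal, lipid-handling and secreted matrix genes are raised together, known from fat, atherosclerotic vessels and injured muscle. CD68 is a glycoprotein of the lysosomal membrane and a common macrophage marker, GPNMB is a transmembrane glycoprotein of lysosomes and melanosomes, and LGALS3 is a galactoside-binding lectin that is also made by many other cells. MMP12 is a secreted elastase, SPP1 (osteopontin) is a secreted phosphoprotein that binds integrins and CD44, and CHI3L1 is a secreted chitinase-like protein without chitinase activity. TREM2, APOE, FABP4 and CD9, which usually define the state, are not analysed here.

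The section totals lay between 4079313 and 12536450 UMIs, and the median spot held 2090.0 UMIs in the 16-week section, 3589.5 in the fresh healthy, 4588 in the 2-week and 5195 in the stored healthy section. The 37 mitochondrial genes took 33.8% to 49.3% of the UMIs. Of the spot barcodes, 602 to 1603 were shared by a pair of sections and 512 by all 4, since every capture area carries the same barcodes. In sections of mixed tissue, fewer cells of a type and less RNA per cell cannot be told apart.

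CD68 (ENSOCUG00000010383) was counted 37 times in the fresh healthy, 278 times in the stored healthy, 88 times in the 2-week and 175 times in the 16-week section. Per 10000 UMIs of all genes its level was 0.0527 (0.0371 to 0.0727), 0.222 (0.196 to 0.249), 0.216 (0.173 to 0.266) and 0.369 (0.316 to 0.428), in the same order. The 16-week level lay above all others and the fresh level below all others, while the stored healthy and 2-week levels overlapped in their intervals.

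GPNMB (ENSOCUG00000026334) was counted 12, 570, 13 and 147 times. Its level per 10000 UMIs was 0.0171 (0.00884 to 0.0299) in the fresh healthy, 0.455 (0.418 to 0.494) in the stored healthy, 0.0319 (0.0170 to 0.0545) in the 2-week and 0.310 (0.262 to 0.364) in the 16-week section. The stored healthy and 16-week sections were both high, and the fresh and 2-week levels overlapped. A single spot of the stored healthy section held 334 of its 570 UMIs. Without that spot the level was 0.189 (0.165 to 0.214), below the 16-week level by these totals. Mitochondrial UMIs are part of the totals, with 49.2% for stored healthy muscle and 34.6% at 16 weeks. Whether this order without the spot holds per non-mitochondrial UMI was not tested.

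LGALS3 (ENSOCUG00000002924) gave most of the UMIs of the set in 3 sections, with 154, 1409, 323 and 1174 UMIs. Its level per 10000 UMIs was 0.219 (0.186 to 0.257) in the fresh healthy, 1.12 (1.07 to 1.18) in the stored healthy, 0.792 (0.708 to 0.883) in the 2-week and 2.47 (2.34 to 2.62) in the 16-week section. Without the single spot the stored healthy level was 0.813 (0.764 to 0.865), and its interval then overlapped that of the 2-week section.

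MMP12 (ENSOCUG00000008303) had 0 UMIs in the fresh healthy section, which allows a level of up to 0.00427 per 10000 at 3 counts and a share of up to 0.154% of its 1950 spots. It had 255 UMIs in the stored healthy section, a level of 0.203 (0.179 to 0.230), of which 179 lay in the single spot. Without it the level was 0.0607 (0.0478 to 0.0760). The 2-week section had 1 UMI (0.00245 per 10000, 6.21e-05 to 0.0137) and the 16-week section 12 (0.0253, 0.0131 to 0.0442). With or without the spot, MMP12 was highest in the stored healthy section.

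SPP1 (ENSOCUG00000022536) was counted 6, 120, 20 and 96 times, at 0.00855 (0.00314 to 0.0186), 0.0957 (0.0794 to 0.114), 0.0490 (0.0299 to 0.0757) and 0.202 (0.164 to 0.247) per 10000 UMIs. The 16-week section was the highest and the fresh section the lowest, and the 2-week interval lay below the stored healthy one. Without the single spot the stored healthy level of 0.0791 (0.0643 to 0.0963) overlapped the 2-week interval. This overlap, too, is by totals with mitochondrial UMIs, and it was not tested per non-mitochondrial UMI.

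CHI3L1 (ENSOCUG00000026988) had another order than the rest of the set. It was counted 3 times in the fresh healthy, 11 times in the stored healthy, 290 times in the 2-week and 25 times in the 16-week section, at 0.00427 (0.000882 to 0.0125), 0.00877 (0.00438 to 0.0157), 0.711 (0.631 to 0.798) and 0.0527 (0.0341 to 0.0778) per 10000 UMIs. The 2-week section was high and no other section came near it, and the fresh and stored healthy sections overlapped.

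**Figure D1:**
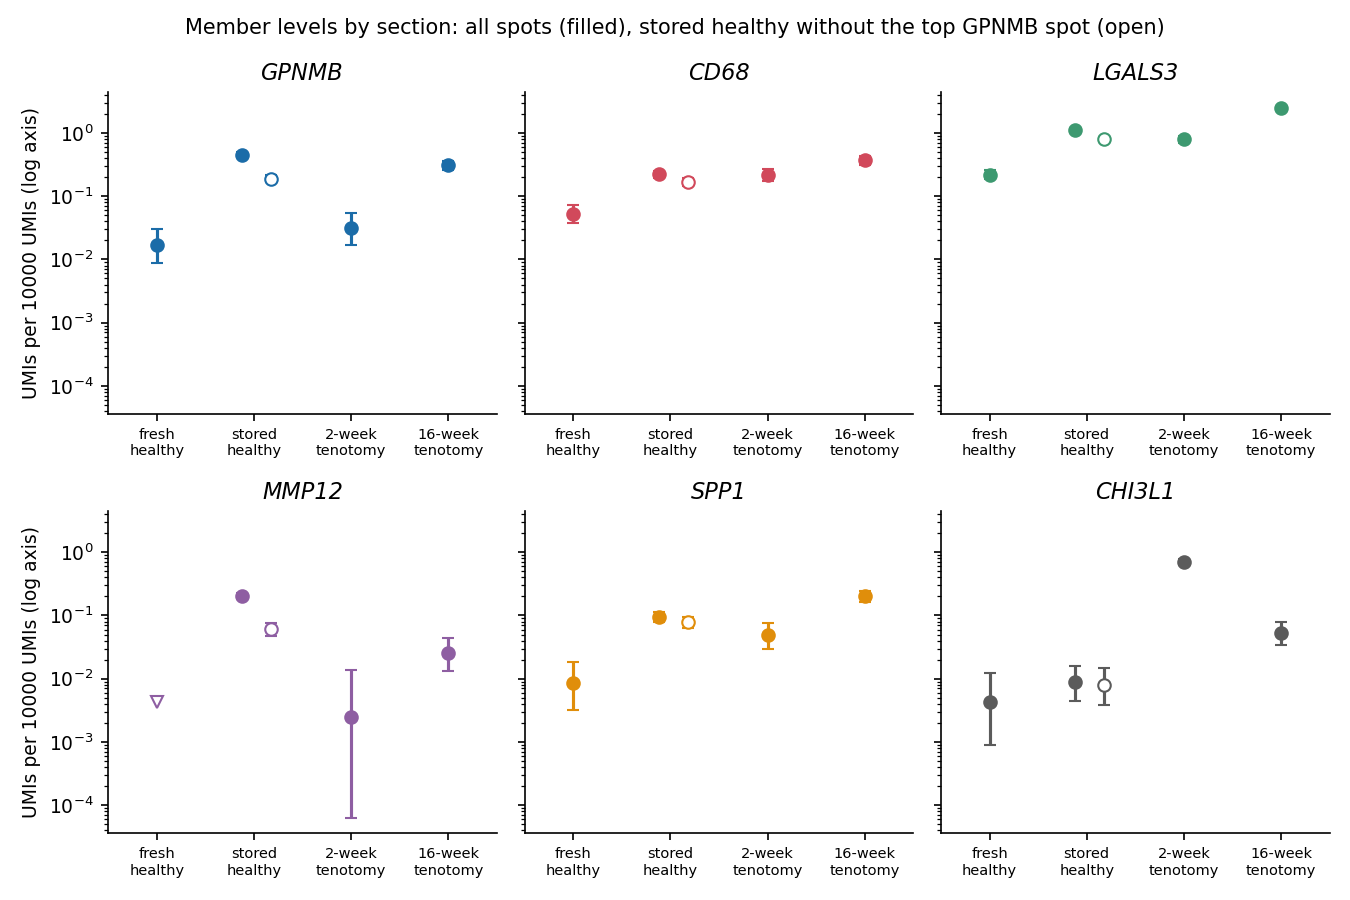
UMIs of each gene per 10000 UMIs of all genes (log axis) in the 4 sections, 1 section per condition; bars are exact Poisson 95% intervals, the open circle is the stored healthy section without the spot with most GPNMB UMIs, and the open triangle is the limit that 0 UMIs allow (0.00427). The open circle lies below the filled one most clearly for GPNMB (0.189 against 0.455) and MMP12 (0.0607 against 0.203), and CHI3L1 alone is highest in the 2-week section.

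The share of spots with at least 1 UMI (Clopper-Pearson intervals) depends on depth, so each spot was also thinned to 1000 UMIs. LGALS3 was detected in 40.5% (38.2 to 42.9) of the spots at 16 weeks, in 23.8% (21.0 to 26.8) at 2 weeks, in 25.0% (23.3 to 26.8) of stored healthy spots and in 7.08% (5.98 to 8.31) of fresh ones. After thinning, these shares were 20.3%, 7.99%, 6.90% and 1.84%, the 16-week section again being highest. CD68 was found in 8.34% of spots at 16 weeks, 8.08% at 2 weeks, 6.93% in stored and 1.74% in fresh healthy muscle, and in 4.66%, 2.50%, 1.28% and 0.475% after thinning. At equal depth the ratio of the 16-week to the stored healthy share was thus higher than before thinning for both genes. Depth here includes mitochondrial UMIs, 34.6% at 16 weeks and 49.2% in the stored healthy section. By section totals 46.9% of all genes were at least 2-fold higher at 16 weeks, and thinned shares of all genes are not set beside these 2. GPNMB was found in 6.89% (5.74 to 8.19) of spots at 16 weeks and in 5.66% (4.77 to 6.65) of stored healthy spots, and in 4.51% and 1.79% after thinning. For MMP12, 43 stored healthy spots were positive (1.76%, 1.28 to 2.37), as were 1 of the 2-week and 8 of the 16-week spots. CHI3L1 was found in 15.5% (13.1 to 18.1) of the 2-week spots, against 0.154%, 0.410% and 1.04% of the fresh healthy, stored healthy and 16-week spots. At least 1 of the 6 genes was found in 9.03%, 32.0%, 39.9% and 47.6% of the spots, and at least 2 genes in 0.513%, 7.75%, 8.78% and 10.5%, in the order fresh healthy, stored healthy, 2 weeks and 16 weeks.

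**Figure D2:**
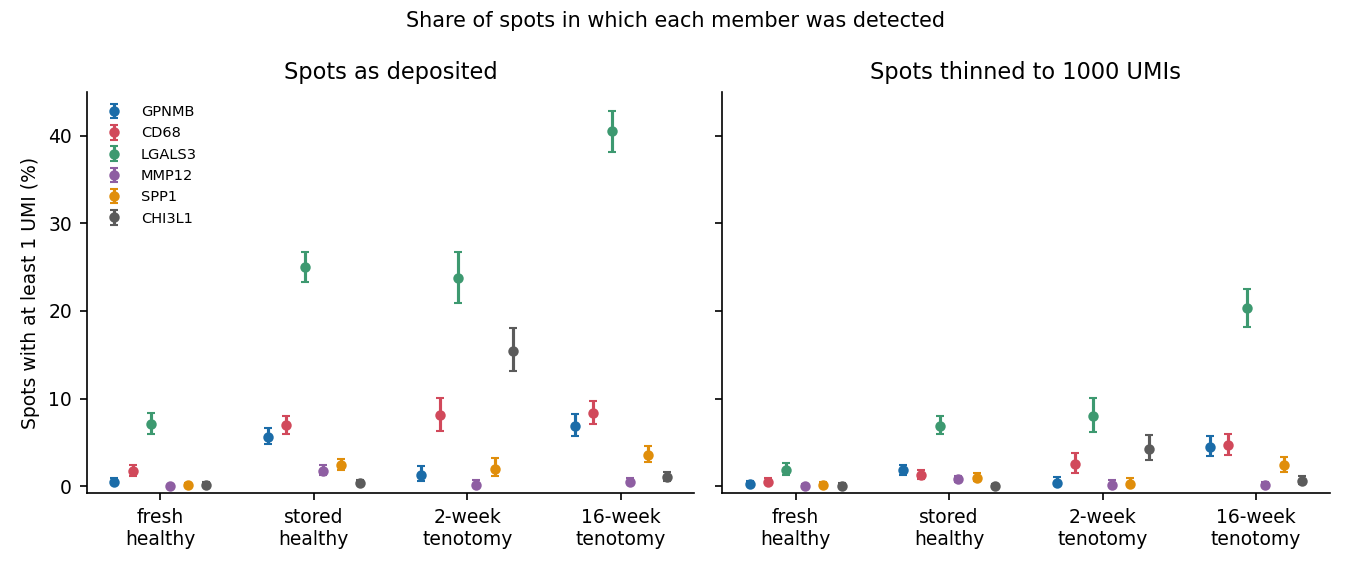
Percent of spots with at least 1 UMI of each gene, as deposited and after thinning each spot to 1000 UMIs, with shallower spots left out; bars are Clopper-Pearson 95% intervals and each section is 1 sample. LGALS3 leads in every section, and its share falls from 40.5% to 20.3% on thinning in the 16-week section but from 25.0% to 6.90% in the stored healthy section.

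The levels were set beside a list of 13 macrophage identity genes (among them CD14, CSF1R, C1QA and CD74), since the members had been named for macrophages. This list summed to 0.526, 1.69, 2.58 and 5.14 UMIs per 10000 in the fresh healthy, stored healthy, 2-week and 16-week section, and 2 of its genes were at 0 in the fresh section and none in the others. CD68 amounted to 10.0 (6.95 to 14.1), 13.1 (11.5 to 14.9), 8.36 (6.65 to 10.4) and 7.18 (6.12 to 8.37) per 100 UMIs of the list, and to 10.0 (8.64 to 11.5) in the stored healthy section without the single spot, so it varied less against the list than against all genes. GPNMB amounted to 3.25 (1.67 to 5.75) per 100 list UMIs in the fresh healthy, 26.9 (24.5 to 29.5) in the stored healthy, 1.23 (0.655 to 2.12) in the 2-week and 6.03 (5.07 to 7.12) in the 16-week section. Without the single spot, the stored healthy value was 11.3 (9.83 to 12.9), still above the 16-week one. LGALS3 stood at 41.7 (34.4 to 50.5) per 100 list UMIs in the fresh healthy and 66.6 (62.2 to 71.2) in the stored healthy section. It stood at 30.7 (27.0 to 34.8) at 2 weeks and 48.1 (44.9 to 51.6) at 16 weeks. Without the single spot the stored healthy value was 48.7 (45.2 to 52.5). CHI3L1 stood at 27.5 (24.1 to 31.4) per 100 list UMIs at 2 weeks and at 1.03 or less in the other sections. The part of macrophage number in the levels was not tested.

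Most of the stored healthy signal for GPNMB and MMP12 came from 1 spot. That spot held 16884 UMIs, at the 99.96th percentile of depth in its section, and 995 of them (5.89%) belonged to the 6 genes, which was 37.6% of all member UMIs in the section. In it GPNMB had 334 UMIs, LGALS3 391, MMP12 179, CD68 69, SPP1 21 and CHI3L1 1. For MMP12 this was 70.2% of the section, for GPNMB 58.6%, for LGALS3 27.8%, for CD68 24.8% and for SPP1 17.5%. Mitochondrial genes took 19.5% of the UMIs of the spot. At the same barcode the fresh section had 3740 UMIs and the 16-week one 146, with all 6 genes at 0 in both.

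Beside the members, the genes most concentrated in the spot were ATP6V0D2 and CHIT1, among genes with at least 20 UMIs in it. CTSE, below that limit, had 18 of its 30 UMIs in the spot. ATP6V0D2, a subunit of the proton pump of osteoclasts and macrophages, had 37 of its 60 UMIs there and 0 UMIs in the other 3 sections. CHIT1, the chitinase of activated macrophages, had 20 of 37 UMIs there. Further named genes, in order of their level in the spot relative to the rest of the section, were the actin-capping gene CAPG (49 UMIs), GLIPR1 (20), the cathepsin genes CTSV (156), CTSB (191) and CTSK (100), the thioredoxin gene TXN (133), the proton pump gene ATP6V1B2 (23), the progranulin gene GRN (51) and the lysosomal protease gene LGMN (40). The 12 lysosome genes summed to 268 UMIs per 10000 in the spot and 5.67 in the rest of the section, and the 13 macrophage identity genes to 16.6 and 1.67. Lipid-handling genes were at 52.7 in the spot against 5.27, and fibroblast genes at 164 against 44.1. The mature fiber list was at 98.3 per 10000 in the spot against 273 elsewhere. Genes of adipocytes, neutrophils and lymphocytes were at 0 in the spot and at 0.200, 0.0599 and 0.0112 per 10000 elsewhere. At such low levels, 0 UMIs in a single spot does not show a difference.

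The spots that ranked next held far fewer member UMIs. The next 3 held 62, 36 and 21, and none after them held more than 18. GPNMB per LGALS3 UMI was 0.854 (0.736 to 0.991) in the top spot, 0.809 (0.513 to 1.27) in the next 3, 0.204 (0.174 to 0.238) in the other 2436 spots and 0.125 (0.105 to 0.149) in the 16-week section. CD68 per GPNMB UMI was 0.207 (0.157 to 0.268) in the top spot, 0.158 (0.0546 to 0.376) in the next 3, 1.03 (0.839 to 1.25) in the other spots and 1.19 (0.951 to 1.49) at 16 weeks. MMP12 per GPNMB UMI was 0.536 (0.444 to 0.645) in the top spot, 0.632 (0.362 to 1.08) in the next 3, 0.263 (0.190 to 0.358) elsewhere and 0.0816 (0.0412 to 0.147) at 16 weeks. The spots with 62 and 36 member UMIs each had member ratios like those of the top spot. Their GPNMB per LGALS3 UMI was 0.917 and 0.923, MMP12 per GPNMB UMI 0.455 and 0.583, and CD68 per GPNMB UMI 0.182 and 0.167. Their CD68 ratios rest on 4 and 2 UMIs of CD68. The spot with 21 member UMIs was less alike, with 4 UMIs of GPNMB, 10 of LGALS3, 7 of MMP12 and 0 of CD68. These spots were picked for their UMIs of the same genes, so the ratios are a description.

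These UMIs were also unevenly placed. Of the 10 stored healthy spots with most member UMIs, 8 had barcodes that lay under tissue in the fresh healthy, stored healthy and 16-week sections but not in the 2-week section, a set of array positions that made up 29.1% of the spots of the section. Leaving out the top spot, these positions held 27.7% of all UMIs. They held 183 of the 236 remaining GPNMB UMIs (77.5%), 64 of the 76 MMP12 UMIs (84.2%) and 20 of the 23 ATP6V0D2 UMIs (87.0%). By contrast, they held 320 of the 1018 LGALS3 UMIs (31.4%), 39 of the 209 CD68 UMIs (18.7%) and 11 of the 99 SPP1 UMIs (11.1%). These positions were chosen after their values were seen. Single spots were not placed on the images, so their distance from the top spot is not known here, and spread of RNA between spots was not tested.

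**Figure D3:**
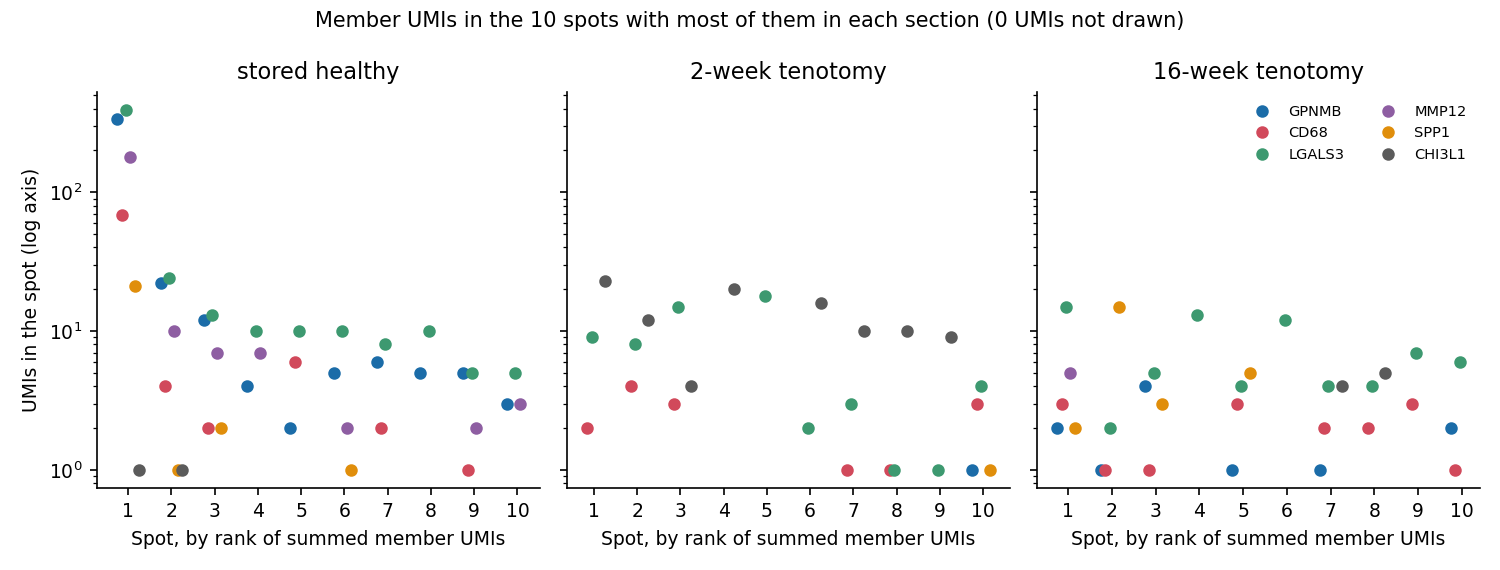
UMIs of each gene (log axis) in the 10 spots with most UMIs of the 6 genes in the stored healthy, 2-week and 16-week sections, ordered by the summed UMIs; a gene at 0 UMIs in a spot is not drawn. The first stored healthy spot holds 995 such UMIs and the next 62, CHI3L1 and LGALS3 share the leading 2-week spots, and no 16-week spot holds more than 27.

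In the 2-week section, the leading spots carried CHI3L1 and LGALS3 and almost no GPNMB. The spot with most member UMIs held 34, of which 23 were CHI3L1 and 9 LGALS3, and the fourth held 20 of CHI3L1 and 0 of the others. Of the 10 leading spots 8 held CHI3L1 at 4 UMIs or more without any GPNMB, and MMP12 was at 0 in all 10. The ranking itself favors this, since CHI3L1 gave 290 and LGALS3 323 of the 735 member UMIs of the section. GPNMB was in 11 and MMP12 in 1 of its 854 spots, so their lack in 10 spots shows no trait of those spots. At 16 weeks, the leading spot held 27 member UMIs (15 of LGALS3, 5 of MMP12, 3 of CD68, 2 each of GPNMB and SPP1), and the next held 15 of the 96 SPP1 UMIs in the deepest spot of the section. The top spot of a gene held 15.6% of the 16-week SPP1 UMIs, 2.72% of GPNMB, 2.29% of CD68 and 1.28% of LGALS3, so the 16-week signal of these last 3 genes was spread over many spots.

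Between sections, each member was expressed as a log2 ratio of its share of the section totals (0.5 UMI added), beside all genes with at least 20 UMIs in the pair, and a ratio of at least 2-fold was counted. The comparisons share sections, so they are not independent of each other. The members were chosen from counts of these same sections, so the counts of members past the fold follow in part from that choice.

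In the stored against the fresh healthy section, 5 of the 5 members with enough UMIs were at least 2-fold higher, as were 9.36% of all genes (11.0% were at least 2-fold lower). The choice of members drew on counts in this stored section. GPNMB (570 against 12 UMIs), MMP12 (255 against 0) and SPP1 (120 against 6) reached 20 UMIs only through it. CHI3L1, at 11 against 3 UMIs, was too low for the comparison. The count of members is therefore a description only. GPNMB was 26.6-fold higher (15.1 to 51.8), a log2 ratio of 4.68, and 11-fold (6.19 to 21.6) without the top spot. MMP12 was at least 47.6-fold higher when set against 3 counts in the fresh section, and 14.2-fold without the top spot. With the counting error of the stored healthy UMIs included, the lower limits were 38.4-fold and 11.3-fold. SPP1 was 11.2-fold (5.0 to 31.1), LGALS3 5.12-fold (4.33 to 6.09) and CD68 4.21-fold (2.98 to 6.10) higher. Here 10 of 11 macrophage identity genes were also at least 2-fold higher (median log2 ratio 1.64, all genes -0.11), among them CSF1R (2.88-fold) and CD74 (3.73-fold). Other lists were also higher, with 7 of 8 fibroblast (median 2.27), 6 of 6 regenerating fiber (2.87) and 2 of 2 neutrophil genes (2.57), and their part in the members' levels was not tested. The lipid-handling list had 2 of 9 genes higher and 2 lower.

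In the 16-week against the stored healthy section, 3 of 6 members were at least 2-fold higher and 1 lower, beside 46.9% and 2.36% of all genes. LGALS3 was 2.20-fold (2.04 to 2.38) and SPP1 2.11-fold (1.60 to 2.79) higher, with log2 ratios of 1.14 and 1.08 against a median of 0.93 over all genes. Relative to that median they stood at 0.20 and 0.15, and CD68 at -0.20. CD68 was 1.66-fold higher (1.37 to 2.02), and 2.21-fold (1.80 to 2.71) without the top spot. CHI3L1, with 25 against 11 UMIs, was 6.01-fold higher (2.85 to 13.5). MMP12 was 8.04-fold lower (4.52 to 15.8), 2.40-fold lower (1.30 to 4.85) without the top spot, and 1.43-fold lower (0.743 to 2.97) without the 10 stored healthy spots with most member UMIs. These spots were left out on the stored healthy side only. Without the top MMP12 spot of each section, at 7 against 76 UMIs, its log2 ratio was -1.95 (ratio 0.0946 to 0.526). By section totals GPNMB changed direction without the top stored healthy spot, from a log2 ratio of -0.55 to 0.72. The median over all genes was then 0.94, so GPNMB lay below the median with and without the spot. Without the 10 stored healthy spots GPNMB stood at 1.17, beside a median of 0.95. In the same comparison 9 of 9 lipid-handling genes were at least 2-fold higher (median 1.83), led by NR1H3, a nuclear receptor for oxysterols, at 14.0-fold (8.63 to 23.9). Adipocytes also use several of these genes, and 4 of 4 adipocyte genes were higher (median 5.29), with CIDEA, a lipid droplet gene, at 82.4-fold (45.5 to 167) and SNCG at 64.5-fold (55.8 to 75.0). The part of fat cells in the lipid-handling list was not tested. Of the macrophage identity genes 8 of 11 were higher, with C1QB at 5.64-fold and CSF1R at 4.29-fold, and of the lysosome genes 5 of 12.

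In the 2-week against the stored healthy section, 1 of 6 members was at least 2-fold higher and 2 were lower, beside 27.6% and 2.11% of all genes. CHI3L1 was 81.0-fold higher (44.6 to 164), a log2 ratio of 6.28. GPNMB was 14.3-fold lower (8.28 to 27), and 5.92-fold lower (3.39 to 11.3) without the top spot. MMP12, with 1 UMI at 2 weeks, was 83.0-fold lower, with a counting interval of 14.8 to 3290.1, and 24.8-fold lower (4.31 to 991) without the top spot. CD68 (log2 ratio -0.03), LGALS3 (-0.50) and SPP1 (-0.94) lay within 2-fold, and all genes had a median of 0.63. Of the macrophage identity genes, 3 of 11 were at least 2-fold higher and none lower.

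In the 16-week against the 2-week section, 3 of 5 members were at least 2-fold higher and 1 lower, beside 18.1% and 5.26% of all genes. GPNMB was 9.72-fold (5.51 to 18.7), SPP1 4.13-fold (2.53 to 7.06) and LGALS3 3.13-fold (2.76 to 3.55) higher. CHI3L1 was 13.5-fold lower (8.96 to 21.2), and CD68 was 1.71-fold higher (1.32 to 2.24). MMP12, at 12 against 1 UMI, was too low for the comparison. The 2 tenotomy sections thus differed in opposite directions for GPNMB and CHI3L1.

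Most pairs of members shared spots. This was described by the share of spots with one gene among spots with and without another. In the stored healthy section without the top spot, GPNMB was found in 22 of 42 MMP12 spots (52.4%, 36.4 to 68.0) and in 4.80% of the other spots. LGALS3 was found in 95 of 168 CD68 spots (56.5%, 48.7 to 64.2) against 22.6%, and in 38 of 59 SPP1 spots (64.4%, 50.9 to 76.4) against 24.0%. The difference was thus widest for GPNMB in MMP12 spots, and for LGALS3 in CD68 and SPP1 spots. CD68 was found in 13.9% (8.56 to 20.8) of the GPNMB spots against 6.47% of the other spots.

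At 16 weeks, CD68 was found in 31 of 119 GPNMB spots (26.1%, 18.4 to 34.9) against 7.03% of the others. LGALS3 was found in 77 of the 119 GPNMB spots (64.7%, 55.4 to 73.2) against 38.7%, and SPP1 in 16 of them (13.4%, 7.88 to 20.9) against 2.86%. All 8 MMP12 spots had LGALS3, and 2 had GPNMB. After thinning to 1000 UMIs, CD68 was in 12.9% (5.74 to 23.8) of the GPNMB spots against 4.27%, so the order was the same with wider intervals. At 2 weeks, the 132 CHI3L1 spots had LGALS3 in 33.3% (25.4 to 42.1) against 22% elsewhere, and CD68 in 12.1% (7.09 to 18.9) against 7.34%. GPNMB was in 1 of them and SPP1 in 1. Over all 854 spots of the section GPNMB was in 11 and SPP1 in 17, too few to tell whether they share spots with CHI3L1. The 2-week CD68 spots had LGALS3 in 46.4% (34.3 to 58.8) against 21.8%. Spots with members were deeper than the rest. Spots with at least 2 members held a median of 6224.5, 5186 and 2408.5 UMIs in the stored healthy (top spot left out), 2-week and 16-week sections, and spots with none 4965.5, 4298 and 1610.0.

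**Figure D4:**
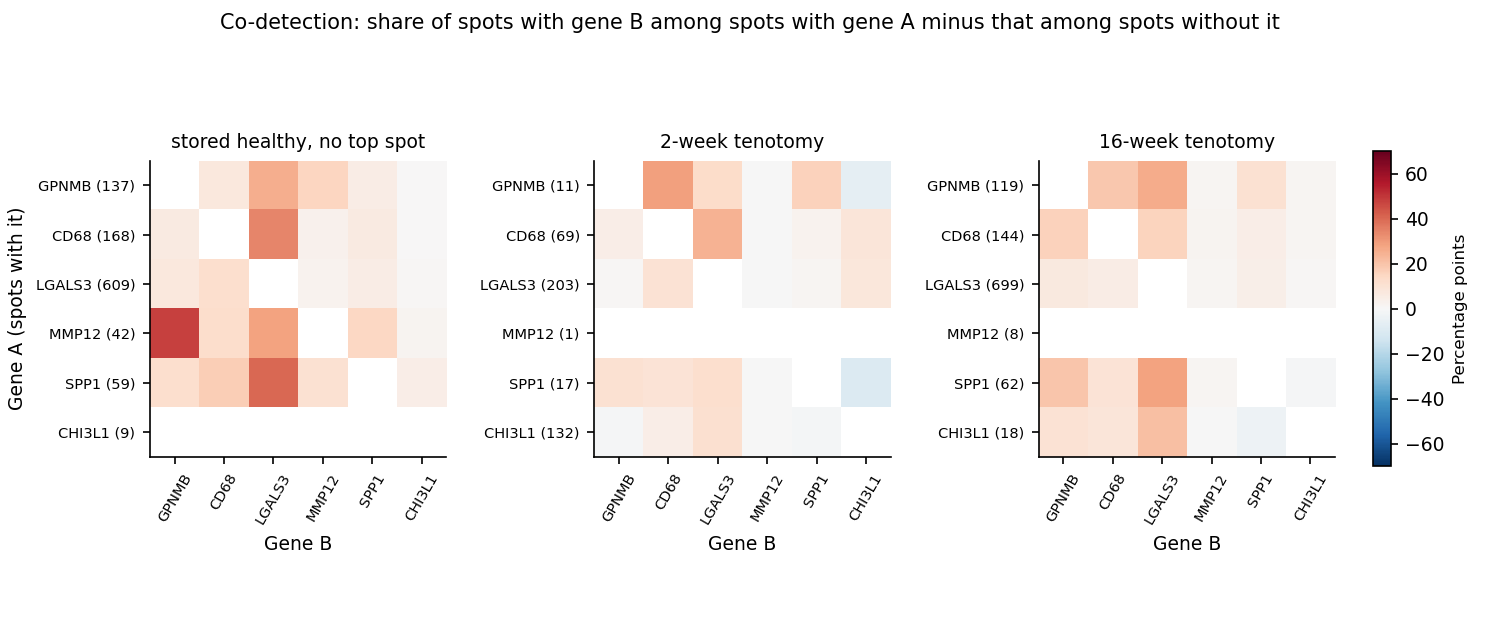
Share of spots with gene B (columns) among spots with gene A (rows, with their number of spots) minus the share among spots without gene A, in percentage points; rows with fewer than 10 spots are blank, and the top stored healthy spot is left out. Values are mostly above 0, the highest in the stored healthy section being GPNMB among MMP12 spots (52.4% against 4.80%). In the 2-week section GPNMB was in 11 spots, too few to tell whether it is joined with CHI3L1.

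Spots with at least 2 members also held more of the macrophage and connective tissue genes than spots with none. Of the macrophage identity genes, 9 of 9 were at least 2-fold higher per 10000 UMIs in such spots of the stored healthy section without the top spot, 7 of 9 at 2 weeks and 8 of 8 at 16 weeks, beside 18.8%, 15.9% and 16.9% of all genes. CD74, the invariant chain of antigen presentation, was 6.38-fold (4.90 to 8.31), 3.69-fold (2.77 to 4.92) and 7.91-fold (5.89 to 10.7) higher. CSF1R, the receptor of the main macrophage growth factor, was 5.10-fold (3.92 to 6.62), 4.06-fold (2.92 to 5.63) and 4.03-fold (3.29 to 4.94) higher. Fibroblast genes were higher in the same spots, with 8 of 8, 7 of 8 and 8 of 8 genes. In the same order, the regenerating fiber list was at 11.9 against 4.50, 9.88 against 3.72 and 28.1 against 20.6 per 10000 UMIs. The vessel wall and endothelium list was at 6.01 against 2.83, 12.6 against 4.61 and 12.3 against 5.69. The mature fiber list was at 308 against 258, 581 against 726 and 271 against 377. The markers of these spots were thus not those of macrophages alone, and the members differed in how far they followed the macrophage list. In the fresh section 10 spots had at least 2 members, and the summed macrophage list was at 1.09 per 10000 UMIs in them against 0.502 in spots with none. This rests on 4 list UMIs in the 9 spots with 2 members and 3 in the 1 spot with 3. Other lists were further raised in these 10 spots, with vessel wall and endothelium at 23.1 against 2.70, regenerating fiber at 7.79 against 0.553 and adipocyte at 2.65 against 0.244. The mature fiber list was at 314 against 327.

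Few lipid-handling genes passed the same fold. In these spots, 0 of 5 were at least 2-fold higher in the stored healthy section (median log2 ratio 0.37, all genes 0.44; 1 of 5 with the top spot, FABP5 at 2.04-fold), 1 of 5 at 2 weeks (-0.19, all genes 0.29) and 1 of 6 at 16 weeks (0.21, all genes 0.36). LPL, a lipase that muscle and fat cells also make, was at 1.11-fold (0.993 to 1.23), 1.62-fold (1.44 to 1.81) and 1.11-fold (1.03 to 1.2). The gene that passed at 2 weeks was FABP5, a fatty acid binding protein, at 2.66-fold (2.27 to 3.11), and at 16 weeks it was NPC1, a lysosomal cholesterol transporter, at 2.53-fold (1.30 to 4.82). The summed list was at 6.83 against 4.86 UMIs per 10000 in the stored healthy, 14.3 against 7.87 in the 2-week and 24.6 against 21.2 in the 16-week section. It was higher in a few places, at 52.7 in the top stored healthy spot and at 30.2 (26.5 to 34.3) in the 14 spots with 3 or more members at 2 weeks. Most of its UMIs were of FABP5 and LPL, with 48 and 32 of 89 in the top spot and 1057 and 2525 of 3833 in the whole 2-week section. In the same 14 spots other lists were higher too, with fibroblast genes at 681 against 101 in spots with no member and adipocyte genes at 3.18 against 0.419. The lipid genes thus followed the members unevenly, and the set is called by its genes.

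Of the lysosome list, 5 of 9 genes were at least 2-fold higher in the spots with 2 or more members of the stored healthy section, 4 of 8 at 2 weeks and 4 of 7 at 16 weeks. CTSK, a collagen-degrading cathepsin of osteoclasts, fibroblasts and macrophages, was 5.52-fold (4.89 to 6.22), 4.31-fold (3.70 to 5.02) and 3.90-fold (3.51 to 4.33) higher. Of the matrix and osteopontin partners, 4 of 4, 3 of 4 and 4 of 4 genes were higher. The osteopontin receptor CD44 was 6.88-fold (4.55 to 10.4) higher in the stored healthy and 3.87-fold (2.45 to 6.13) higher in the 16-week section, and MMP2, a gelatinase, was 3.65-fold and 5.65-fold higher. Among the fibroblast genes COL1A2, a chain of type I collagen, was 4.25-fold (4.07 to 4.44), 3.42-fold (3.28 to 3.56) and 5.29-fold (5.0 to 5.58) higher. The macrophage list summed to 4.4 against 1.0 per 10000 in the stored healthy, 6.27 against 1.88 in the 2-week and 12.2 against 3.25 in the 16-week section. The fibroblast list was at 91.9 against 31.0 per 10000 in the stored healthy, 303 against 101 in the 2-week and 207 against 59.8 in the 16-week section. The part of connective tissue in the co-detection of members was not tested.

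The surroundings of GPNMB differed between the stored healthy and the 16-week section. In the stored healthy section without the top spot, the 137 GPNMB spots held the macrophage list at 1.37 times (1.16 to 1.59) and the fibroblast list at 1.03 times (0.991 to 1.06) the level of the other spots. Of these 137 spots, 92 lay at the array positions described above, 29.1% of the section's spots, which also held the top spot. The same positions held 31 of the 42 MMP12 spots, and spread of RNA from the top spot was not tested. At 16 weeks the 119 GPNMB spots held the macrophage list at 2.92 times (2.63 to 3.24) and the fibroblast list at 3.32 times (3.24 to 3.40). They held the mature fiber list at 0.700 times (0.685 to 0.715). The 42 MMP12 spots of the stored healthy section held the macrophage list at 1.44 times (1.09 to 1.87) and the fibroblast list at 1.12 times (1.06 to 1.18). CD68 spots, by contrast, held the macrophage list at 3.61 times (3.27 to 3.99) in the stored healthy and 2.37 times (2.15 to 2.62) in the 16-week section. The lysosome list was at 2.05 times (1.81 to 2.31) in the MMP12 spots and 1.44 times (1.32 to 1.56) in the GPNMB spots, and the matrix list at 2.30 times (1.85 to 2.83) and 0.961 times (0.799 to 1.15). At 16 weeks the GPNMB spots also held the lymphocyte and plasma cell list at 5.57 times (3.88 to 7.88) the level of the others, a list at 1.40 against 0.252 per 10000 UMIs. The SPP1 spots at 16 weeks held it at 5.22 times (3.26 to 8.04). Of the 159 UMIs of this list at 16 weeks, 129 were of JCHAIN and 28 of MZB1, both plasma cell genes. By the labels these sections were opposite sides of 1 animal, so side, condition and section cannot be told apart here. Whether their difference exceeds that between sections of 1 condition was not tested.

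SPP1 spots were the richest in matrix genes in the stored healthy section, but not clearly so at 16 weeks. In the stored healthy section, its 59 spots without the top spot held the matrix and osteopontin partners at 7.15 times (6.42 to 7.95), the fibroblast list at 3.36 times (3.27 to 3.46) and the lysosome list at 3.01 times (2.77 to 3.25) the level of the other spots. The cartilage and bone list, of which only COL11A1 had enough UMIs, was at 17.8 times (12.3 to 25.4). At 16 weeks the 62 SPP1 spots held these 4 lists at 4.51, 3.83, 2.76 and 5.92 times. The regenerating fiber list, with the developmental myosin genes MYH8 and MYL4 among its members, was at 3.38 times (3.14 to 3.62) in the stored healthy and 2.12 times (1.96 to 2.28) in the 16-week section. Most UMIs of this list were of ACTC1, with 6793 of 8143 in the whole stored healthy and 9054 of 10396 in the whole 16-week section.

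CHI3L1 spots stood apart at 2 weeks. Of the macrophage identity genes 2 of 9 were at least 2-fold higher in its 132 spots (median log2 ratio 0.79, all genes 0.17). The summed list was at 1.57 times (1.36 to 1.80) the level of the other spots. The adipocyte list had 3 of 3 genes higher (median log2 ratio 2.38) and was at 3.30 times (2.50 to 4.35), with 5 of its 10 genes in the table and a level of 1.27 against 0.385 per 10000. SNCG gave 143 of the 221 UMIs of this list in the whole 2-week section. The lipid-handling list was at 2.10 times (1.96 to 2.25), but with 2 of 6 genes higher and a median log2 ratio of 0.34. LPL gave 2525 of the 3833 UMIs of the lipid-handling list in the whole 2-week section. The fibroblast list was at 1.80 times (1.77 to 1.83), with 3 of 8 genes higher. CD68 spots of the same section had 7 of 9 macrophage genes higher (median 1.60, all genes 0.22), with the list at 2.94 times (2.55 to 3.39). The share of all genes past 2-fold in these spots is not given, so the counts lack a background. The part of fat cells in the CHI3L1 level was not tested.

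**Figure D5:**
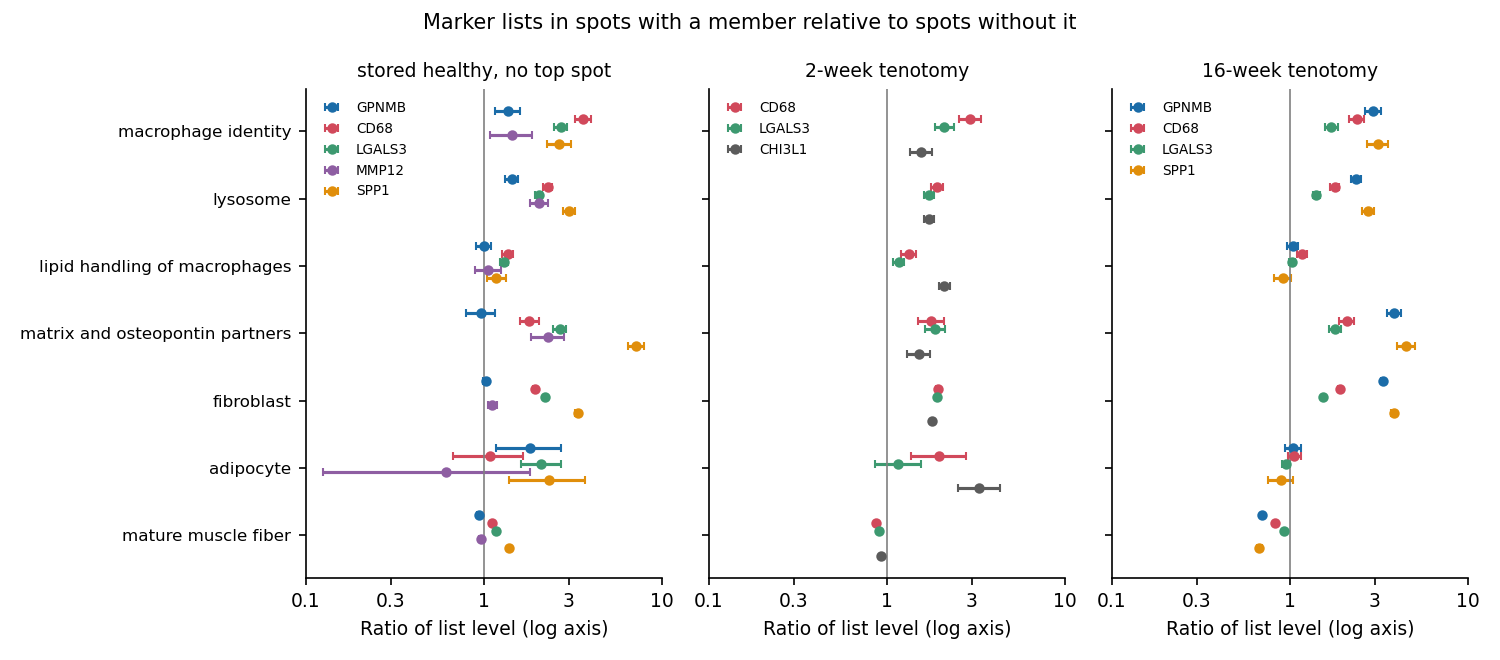
Ratio (log axis) of the summed level of each marker list in spots with a gene to that in spots without it, for genes with at least 20 positive spots and without the top stored healthy spot; bars are exact 95% intervals for counting error. In the stored healthy section the GPNMB and MMP12 points lie near 1 for the fibroblast list (1.03 and 1.12), whereas at 16 weeks GPNMB lies at 3.32, and at 2 weeks CHI3L1 has the highest adipocyte ratio (3.30).

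The genes whose pattern over spots was most like the members were named by Pearson correlation of log2(1 + UMIs per 10000) over the spots of a section, which share depth and library, so the values are descriptions. For the summed members, CTSK came first in the stored healthy section (r = 0.36 over 2440 spots, 0.35 without the top spot), LUM at 2 weeks (0.39 over 854 spots), COL1A2 at 16 weeks (0.37 over 1726 spots) and IGFBP6 in the fresh section (0.18 over 1950 spots). COL1A2 and COL3A1 were among the first 5 in both the stored healthy and the 16-week section. For GPNMB and for MMP12 in the stored healthy section it was ATP6V0D2, at 0.41 and 0.51, and at 0.30 and 0.36 without the top spot. Outside that spot ATP6V0D2 had 23 UMIs in 23 spots, of which 15 had GPNMB (65.2%, 42.7 to 83.6) against 5.05% of the other spots, and 10 had MMP12 (43.5%, 23.2 to 65.5) against 1.32%. CTSE came second for GPNMB (0.26). Outside the top spot, 4 of the 12 CTSE spots had GPNMB (33.3%) against 5.48% of the other spots, and 0 had MMP12. MLANA, a melanosome gene, was also among the first 3 for both genes and CHIT1 for MMP12. Without the top spot MLANA was so for MMP12 only (0.21), and the cathepsin gene CTSV (0.16) came next for GPNMB. CD68 was most like CD74 (0.26), SPP1 at 16 weeks most like COL1A1 (0.28), and CHI3L1 at 2 weeks most like ENSOCUG00000001375 (0.47), GSTA5 (0.42) and PSAT1 (0.42). Most of these correlations are weak in sparse counts.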

How the data were processed

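Per the labels and the methods of the study, the authors sectioned frozen muscle, captured its RNA on Visium slides, aligned the images by hand and ran Space Ranger 1.2.0 on the rabbit build OryCun2.0 with Ensembl annotation. The deposited counts are whole, not normalized, and cover spots under tissue. All such spots and 21139 genes were used. A spot can hold several cells, so doublets were not called. The members and marker lists were chosen with earlier results of these data known. With 1 section per condition no test was run. Sums carry exact Poisson, shares Clopper-Pearson and ratios exact conditional intervals. Only the ratio intervals were checked on simulated data, with section totals drawn as Poisson counts. Genes with at least 20 UMIs over a pair of sections were compared. Named were the members, up to 4 genes per list by size of ratio, further list genes as examples chosen after their values were seen, and the genes most alike by correlation. Position groups, genes of the top spot outside it, the ratio to the macrophage list and leaving out 10 spots were added after seeing the data. Gene symbols came from the count table, and no sequences are shown. Alternatives covered spots with at least 500 UMIs, thinning to 1000 or 500 UMIs, 2 UMIs for detection, non-mitochondrial totals, scaling by the median gene, a minimum of 50 UMIs, 1 UMI added and leaving out top spots. Sums and intervals were computed with scipy 1.17.1, pandas 2.3.3 and numpy 2.4.6 under Python 3.11.15, and plots with matplotlib 3.10.9.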

Additional observations from a re-analysis of the deposited data

How the results depend on the processing

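No paired analysis was possible because each condition had 1 section. Of the values that answer a comparison, 71 moved by less than counting error or 1.5 times and 37 by more, and the 37 follow. In the order fresh healthy, stored healthy, 2 weeks and 16 weeks, the summed members per 10000 non-mitochondrial UMIs were 0.596, 4.15, 2.72 and 5.25. Thinned to 1000 UMIs, 2.73%, 10.6%, 14.5% and 27.7% of spots had a member and 0%, 0.810%, 0.874% and 4.15% had at least 2. Thinned to 500 UMIs, these were 1.57%, 5.46%, 9.60% and 17.8%, and 0%, 0.210%, 0.608% and 2.07%. With 2 UMIs for detection, they were 1.13%, 9.84%, 10.9% and 16.9%, and 0%, 1.60%, 1.52% and 1.62%. With spots of at least 500 UMIs, 50.9% of 16-week spots had a member. Without the stored healthy spot with most GPNMB UMIs, its summed level was 1.32 per 10000 and its top spot held 3.76% of the member UMIs. Scaled by the median gene, 4 members were at least 2-fold lower at 2 weeks against stored healthy, and 1 was higher and 2 lower at 16 weeks against stored healthy. With non-mitochondrial totals 1 was higher in the latter. Without the 10 stored healthy spots with most member UMIs, 5 were higher and 0 lower, and MMP12 stood at a log2 ratio of -0.47. The shift of the median gene, from -0.11 to 0.93, sets the split of higher and lower calls: at 16 weeks against stored healthy 2825 genes were higher and 142 lower by totals, and 754 and 648 by the median gene. Depth limits genes at few UMIs, such as MMP12 at 2 weeks (1) and CHI3L1 in the fresh section (3).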

Other observations

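The spots with most member UMIs differed between sections in their share of mitochondrial UMIs. In the 10 leading spots it lay between 12.1% and 25.1% at 2 weeks and between 7.16% and 25.6% at 16 weeks, below the 33.8% and 34.6% of the whole sections. Among stored healthy spots the first was at 19.5% and the other 9 between 33.7% and 50.8%, against 49.2% in the whole section. The second-ranked stored healthy spot, with 62 member UMIs among 6079, was at the 71.5th percentile of depth.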
